A study of Mus musculus with 6 samples.

Results

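RNA of whole mouse aorta was examined for the genes that encode the proteasome. The genes were taken by name, as protein-coding genes whose symbols start with Psma, Psmb, Psmc or Psmd followed by a digit, which gave 40 of the 55487 genes in the table. Of these, 38 had a summed count of 60 or more over the 6 libraries and were tested. Psma8, the alpha subunit of testis, had 24 counts and Psmb11, the beta subunit of thymic epithelium, had 2 counts in all libraries together, and neither was tested. The name also takes in Psmc3ip, a cofactor of meiotic recombination that is no proteasome subunit. Its own values are given apart, but it is counted among the 38. In 3 libraries Ogt, the gene of O-GlcNAc transferase, had been deleted in smooth muscle cells (SMC), and in 3 control libraries the Ogt gene carried loxP sites. The sample titles name SM22, the product of Tagln, whose promoter is widely used to drive Cre recombinase in smooth muscle. No source used here gives the driver itself, the age and sex of the mice or the number of mice behind a library. RNA came from the whole tissue, so cells outside the deleted lineage contribute to every value, and fewer cells of a type cannot be told apart from less RNA per cell.

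The proteasome degrades proteins that have been marked with ubiquitin. Its barrel-shaped core is built of rings of alpha subunits, which gate the entry, and rings of beta subunits, among which Psmb5, Psmb6 and Psmb7 carry the peptidase sites. A regulatory particle caps the core: its ATPases (Psmc genes) unfold substrates, and its non-ATPase subunits (most Psmd genes) bind ubiquitin and remove it. In immune cells and under interferon gamma, Psmb8, Psmb9 and Psmb10 replace the constitutive peptidases and form the immunoproteasome. The transcription factor encoded by Nfe2l1 raises the subunit genes together when proteasome activity is short. O-GlcNAc transferase has been reported to modify the ATPase encoded by Psmc1 and so to hold back proteolysis, a step on the protein that RNA does not show.

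Total counts ran from 11845644 to 18218385 in knockout libraries and from 3038782 to 13738958 in control libraries. The lowest was control replicate 2, which also stood apart in composition, with 10.2% of its counts in mitochondrial ribosomal RNA against 0.49% to 0.82% in the other 5 libraries. Ogt had 93.3, 73.5 and 70.9 CPM (counts scaled to an equal library size) in knockout replicates 1 to 3, against 177.4, 183.2 and 150 CPM in control replicates 1 to 3. The smooth muscle markers Acta2 and Myh11 were abundant in all 6 libraries, with at least 10430 and 6832 CPM. Tagln itself was lower in knockout aorta (log2 fold change -1.14, edgeR adjusted p = 0.0331), the 1 of 8 smooth muscle markers that was called. That call was lost without control replicate 1 or 3 or any 1 knockout replicate (edgeR adjusted p = 0.0588 to 0.186). Of 6 adipocyte markers Ucp1 was called lower (log2 fold change -2.45, edgeR adjusted p = 0.0023). EdgeR, DESeq2 and limma called 0 of 6 fibroblast markers and 0 of 7 endothelial markers. At an unadjusted edgeR p under 0.05, 1 fibroblast marker was lower and 0 endothelial markers passed. At that p, 1 adipocyte marker was higher (Lep, 1.55) and 2 were lower. Of the smooth muscle markers 1 was higher (Des, 0.61) and 2 were lower. Over all genes 11.5% were higher and 11.3% were lower. Of 16139 genes tested with edgeR's quasi-likelihood test, 557 passed an adjusted p of 0.05.

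In knockout aorta 1 of the 38 proteasome genes, the lid subunit gene Psmd8, rose, to 159.2% of control. The other 37 did not pass the test, with log2 fold changes, given as knockout minus control throughout, of -0.23 (Psma1) to 0.66 (Psmd5). At this threshold 2.63% of the members were called higher, beside 1.90% of all genes tested, and 0 were called lower, beside 1.56% of all genes. At an unadjusted p under 0.05, 5 members were higher (13.2%, beside 11.5% of all genes) and 0 were lower (beside 11.3%). DESeq2 called Psmd8 and Psmd5 higher, which is 2 members beside 4.68% of all genes, and limma called Psmd8 alone, beside 2.40%. Neither tool called a member lower, beside 4.55% of all genes by DESeq2 and 2.33% by limma. Log2 fold changes were positive in 31 members (30 of 37 without Psmc3ip) and negative in 7. Their median was 0.19 (0.18 without Psmc3ip), beside -0.01 for all genes tested.

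That median moved with control replicate 2. In 28 of the 38 members this library had the lowest CPM of the 6, which is 73.7% of the members beside 32.6% of all genes tested. On the log2 scale the typical member lay 0.383 below its own mean over the libraries in control replicate 2 and 0.021 and 0.029 above it in control replicates 1 and 3, while the knockout libraries lay 0.080, 0.098 and 0.144 above it. Without control replicate 2 the median log2 fold change was 0.08, 24 of 38 were positive (63.2%, beside 50.6% of all genes), and Psmd8 remained the 1 member called. That fit called 491 of 16535 genes higher and 420 lower. Knockout values lay entirely above control values in 12 members (31.6%, beside 16.9% of all genes) and entirely below them in 1, Psma1 (2.63%, beside 14.8%). The share entirely above was 29.7% without Psmc3ip.

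**Figure D1:**
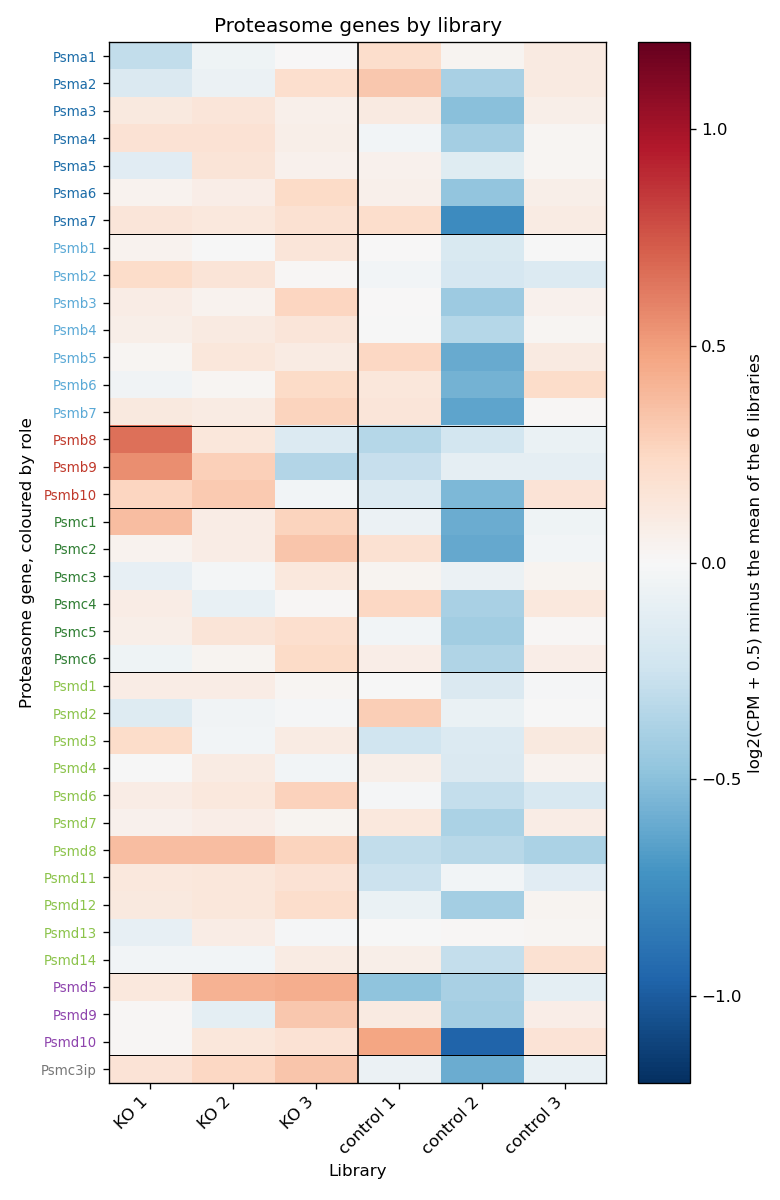
Each row is a tested proteasome gene and each column a library, with knockout libraries left of control libraries. Colour is log2(CPM + 0.5) minus the mean of the 6 libraries. Psmd8 is higher in all 3 knockout libraries, and control replicate 2 is the lowest library in 28 of the 38 rows.

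Psmd8 encodes a subunit of the lid of the regulatory particle, where ubiquitin chains are removed (ENSMUSG00000030591, GRCm38 chromosome 7, 29174188 to 29180701). It had 173.3, 173 and 161 CPM in knockout replicates 1 to 3, against 109.2, 106.4 and 102.9 CPM in control replicates 1 to 3. The groups did not overlap and all 3 knockout libraries were high. Mean expression was 169.1 ± 7.0 CPM in knockout and 106.2 ± 3.15 CPM in control aorta (SD, n = 3 each), or 159.2% of control. The log2 fold change was 0.67 ± 0.11 (SE), with a 95% interval of 0.43 to 0.92 and an edgeR adjusted p of 0.029. No other gene in the table overlaps Psmd8. The size of the change stayed between 0.65 and 0.71 with any single library left out. The call was kept without control replicate 2 (edgeR adjusted p = 0.023) and lost without control replicate 1 (0.112), control replicate 3 (0.0559) or knockout replicate 1 (0.156), 2 (0.144) or 3 (0.0769).

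The RefSeq promoter window of Psmd8 is shown because this is the member that rose. It covers the 250 bases before the annotated start, on the minus strand of GRCm38.p6 chr7:29180674-29180923. Its bases from 29180674 to 29180701 lie inside the span of Psmd8 in the annotation used for the counts. The window was searched on both strands for TGACNNNGC, the core of the antioxidant response element bound by Nfe2l1 and Nfe2l2. It was also searched for TTCNNNGAA, the core of the interferon gamma activated site. It holds neither, so no letter is in capitals.
Psmd8: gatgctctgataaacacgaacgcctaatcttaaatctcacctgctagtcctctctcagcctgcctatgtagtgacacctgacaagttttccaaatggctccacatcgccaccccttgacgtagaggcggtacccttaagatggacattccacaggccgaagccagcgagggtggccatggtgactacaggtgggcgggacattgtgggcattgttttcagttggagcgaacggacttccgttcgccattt

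The level of Psmd8 can be given relative to its partners in the regulatory particle. This uses the same counts that picked out Psmd8, so it describes the change and adds no support. FPKM values, which take account of gene length, put Psmd8 at 2.47, 2.63 and 2.32 times the median of the other 10 non-ATPase subunits in knockout replicates 1 to 3. The ratio was 1.76, 1.94 and 1.59 in control replicates 1 to 3, and the groups did not overlap. Its place in the order of mean FPKM among the 38 genes was 7 in knockout and 10 in control aorta.

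The other lid and base subunits were closer to control. Psmd6, a lid subunit, had 57.7, 59.3 and 66.1 CPM in knockout replicates, against 53.8, 44.5 and 47.5 CPM in control replicates. Its log2 fold change was 0.32 ± 0.12 (edgeR adjusted p = 0.174). Psmd11, the lid subunit that clamps core and regulatory particle together, had 78.3, 78.8 and 80.9 CPM in knockout replicates, against 59.9, 70.1 and 65.5 CPM in control replicates. Its log2 fold change was 0.29 ± 0.11 (edgeR adjusted p = 0.172). In both genes every knockout library lay above every control library, and neither passed the test over all genes. The lid subunits Psmd12 (log2 fold change 0.29) and Psmd3 (0.18) and the base scaffold Psmd1 (0.13) had smaller positive values. Psmd7 (0.08), the ubiquitin receptor gene Psmd4 (0.03), the deubiquitinase gene Psmd14 (-0.01) and Psmd13 (-0.02) were nearest to 0, and the scaffold gene Psmd2 was at -0.15. Over these 11 non-ATPase subunits the median was 0.13, or 0.09 without control replicate 2.

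The ATPase genes had a median log2 fold change of 0.20, or 0.05 without control replicate 2. Of the 6 genes, 0 were called by edgeR, DESeq2 or limma, beside 3.45%, 9.23% and 4.73% of all genes. At an unadjusted edgeR p under 0.05, 1 was higher, beside 11.5% of all genes. Psmc1, whose product is the reported target of O-GlcNAc transferase, had 115.1, 94.6 and 106.9 CPM in knockout replicates, against 84.6, 58.6 and 86.1 CPM in control replicates. The groups did not overlap, and control replicate 2 was the lowest library. The log2 fold change was 0.46 ± 0.17, with a 95% interval of 0.06 to 0.85 (edgeR adjusted p = 0.169), and it was 0.31 without control replicate 2. Psmc5 (0.27), Psmc2 (0.27) and Psmc6 (0.12) were positive, and Psmc4 (-0.03) and Psmc3 (-0.00) were nearest to 0. Psmc3 (8378 counts) overlaps Slc39a13 (6387 counts) on the chromosome. With no strand setting given, reads from a stretch that the 2 genes share may have been counted for either. In all, 20 tested members overlap another gene of the table. Among them Psmd13, with 3749 counts, overlaps the pseudogene Gm15542 (4258 counts) and Sirt3 (1176 counts), so its value is uncertain.

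**Figure D2:**
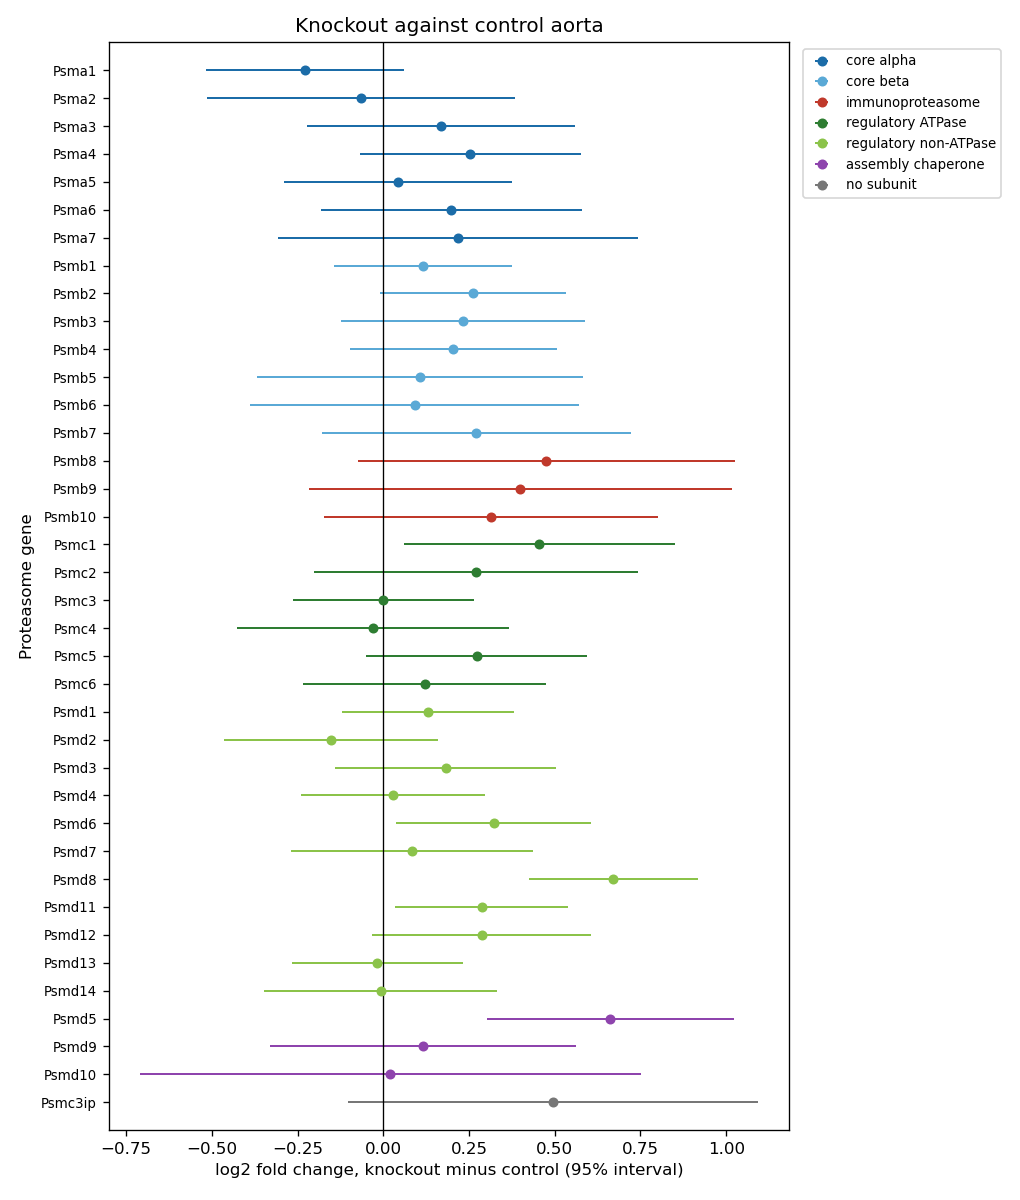
Points are log2 fold changes of the 38 tested genes, knockout minus control, and bars are 95% intervals from edgeR's quasi-likelihood fit, coloured by role. Psmd8 (0.67) and Psmd5 (0.66) lie farthest to the right, and the intervals of the 14 core subunits all include 0.

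EdgeR, DESeq2 and limma called 0 of the 14 core particle genes in either direction, beside 3.45%, 9.23% and 4.73% of all genes. An unadjusted edgeR p under 0.05 was seen in 0 of the 14, beside 11.5% of all genes higher and 11.3% lower. Alpha subunits ranged from -0.23 to 0.25 in log2 fold change (median 0.17, or 0.00 without control replicate 2) and beta subunits from 0.09 to 0.27 (median 0.20, or 0.09 without it). Their 95% intervals reached down to -0.52, for Psma1, and up to 0.74, for Psma7. Psma1, the alpha gene with the largest fall in value, had 53, 62.9 and 65.6 CPM in knockout replicates, against 75.4, 66.7 and 70.2 CPM in control replicates. Knockout values were all below control values, with knockout replicate 3 close to control replicate 2, and the log2 fold change of -0.23 ± 0.12 did not pass the test (edgeR adjusted p = 0.32). Psma4 (0.25), Psma7 (0.22), Psma6 (0.20), Psma3 (0.17), Psma5 (0.04) and Psma2 (-0.06) were the other alpha subunits.

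Among beta subunits, the peptidase genes Psmb7 (log2 fold change 0.27), Psmb5 (0.11) and Psmb6 (0.09) did not pass the test. Psmb5, the gene of the chymotrypsin-like site, had 54.6, 59.2 and 57.7 CPM in knockout replicates, against 63.9, 35.2 and 58 CPM in control replicates. Control replicates 1 and 3 lay around the knockout values and control replicate 2 lay far below them. The log2 fold changes of Psmb5 and Psmb6 were -0.09 and -0.10 without that library. Psmb2 (0.26), Psmb3 (0.23), Psmb4 (0.20) and Psmb1 (0.12), which have no peptidase site, were all positive, and Psmb2 had the lowest adjusted p of the core (edgeR adjusted p = 0.234). The pseudogene copy Psma5-ps had 115, 143 and 191 counts in knockout replicates and 144, 18 and 149 in control replicates. Reads may be divided between Psma5 and this copy, so the value of Psma5 is uncertain, and its log2 fold change was again 0.04 with both counted together.

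The promoter windows of the peptidase genes Psmb5 and Psmb6 hold the antioxidant response element core and are shown with it in capitals, as the 250 bases before the start on the minus strand of chr14:54617996-54618245 for Psmb5 and on the plus strand of chr11:70525107-70525356 for Psmb6 (RefSeq, GRCm38.p6). The match spans bases 47 to 39 before the start in Psmb5 and bases 9 to 1 before it in Psmb6, counted from the RefSeq start. In the annotation used for the counts the span of Psmb5 reaches to 54618022, which lies inside its window.
Psmb5: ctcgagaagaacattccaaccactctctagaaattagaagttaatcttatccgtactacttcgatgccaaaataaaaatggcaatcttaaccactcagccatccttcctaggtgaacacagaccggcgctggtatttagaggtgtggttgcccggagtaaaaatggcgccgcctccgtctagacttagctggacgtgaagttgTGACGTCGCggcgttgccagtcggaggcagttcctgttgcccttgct
Psmb6: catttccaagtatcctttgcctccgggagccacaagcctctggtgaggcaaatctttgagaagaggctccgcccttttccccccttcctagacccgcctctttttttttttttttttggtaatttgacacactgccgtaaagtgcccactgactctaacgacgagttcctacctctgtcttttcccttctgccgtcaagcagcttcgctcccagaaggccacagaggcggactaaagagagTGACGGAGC
Of the 40 members, 33 had windows in the RefSeq table, 35 windows in all. Psma8, Psmb1, Psmb2, Psmb7, Psmc3, Psmd3 and Psmd7 had none. The element core stood in 5 of the 35 member windows (14.3%), those of Psmb5, Psmb6, Psmc6, Psmd9 and Psmd12, beside 10.2% of all 32851 windows. The log2 fold changes of these 5 genes ran from 0.09 to 0.29, beside a median of 0.19 for all 38 tested members. Without control replicate 2 they ran from -0.10 (Psmb6) to 0.19 (Psmd12), beside a median of 0.08. The CCAAT box, a common promoter element, stood in 14 of the 35 member windows, beside 33.8% of all windows. A match of these letters is a description and not a bound site.

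The immunoproteasome genes had a median log2 fold change of 0.40, or 0.43 without control replicate 2. Of the 3 genes, 0 were called by edgeR, DESeq2 or limma, beside 3.45%, 9.23% and 4.73% of all genes. An unadjusted edgeR p under 0.05 was seen in 0 of the 3, beside 11.5% of all genes higher and 11.3% lower. Psmb8, which takes the place of Psmb5, had 22.4, 15.4 and 12.4 CPM in knockout replicates, against 10.9, 11.9 and 13.2 CPM in control replicates. Its log2 fold change was 0.48 ± 0.24 (edgeR adjusted p = 0.28). Knockout replicate 1 was the highest library and knockout replicate 3 lay inside the control range. Psmb9, which replaces Psmb6, had 12.7, 10.4 and 6.5 CPM in knockout replicates, against 6.9, 7.8 and 7.8 CPM in control replicates (log2 fold change 0.40 ± 0.27, edgeR adjusted p = 0.41). Psmb10, which replaces Psmb7, had 15.1, 15.8 and 12.3 CPM in knockout replicates, against 11.2, 8.5 and 14.2 CPM in control replicates (0.31 ± 0.21, edgeR adjusted p = 0.413). Groups overlapped in all 3 genes, and without knockout replicate 1 the log2 fold changes of Psmb8 and Psmb9 were 0.22 and 0.19.

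The ratio of each immune subunit to the subunit it replaces did not separate the groups. Per gene length, Psmb8 stood at 11.7%, 7.44% and 6.15% of Psmb5 in knockout replicates 1 to 3, and at 4.89%, 9.62% and 6.48% in control replicates 1 to 3. Psmb9 stood at 7.03%, 5.51% and 2.98% of Psmb6 in knockout replicates, and at 3.38%, 6.22% and 3.58% in control replicates. Psmb10 stood at 17.6%, 18.6% and 12.9% of Psmb7 in knockout replicates, and at 12.8%, 16.7% and 17.7% in control replicates. In every library the constitutive peptidase transcript was the more abundant.

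**Figure D3:**
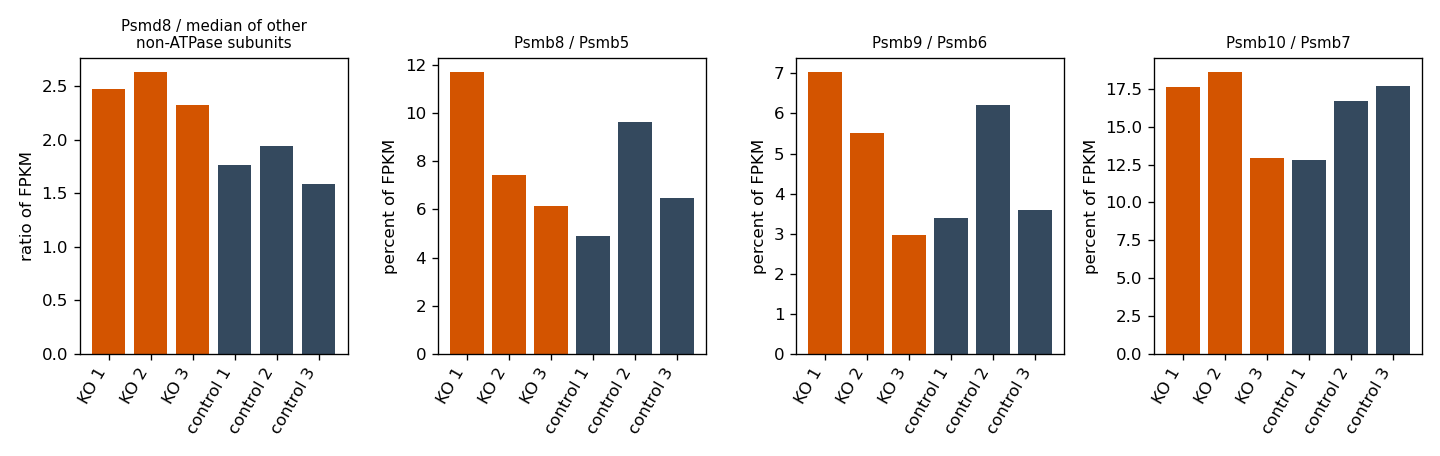
Bars give 1 library each, knockout left of control, as ratios of FPKM within the library. Psmd8 over the median of the other non-ATPase subunits is 2.32 to 2.63 in knockout and 1.59 to 1.94 in control libraries, while the 3 ratios of an immune subunit to its constitutive counterpart overlap between groups.

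Psmb9 and Psmb8 lie 9956 bases apart in the major histocompatibility complex on chromosome 17, with the peptide transporter gene Tap1 next to Psmb9 and overlapping it. Tap1 had 1182 counts and Psmb9 had 673, so the value of Psmb9 is uncertain. The window of Psmb8 (plus strand, chr17:34197945-34198194, RefSeq, GRCm38.p6) is shown because it is the 1 of the 35 member windows, 2.9%, that holds the interferon gamma activated site core, given in capitals. Of all windows 7.0% hold it. This window lies inside the span of Psmb8 in the annotation used for the counts (34197721 to 34201454). The 2 annotations thus place the start of Psmb8 differently.
Psmb8: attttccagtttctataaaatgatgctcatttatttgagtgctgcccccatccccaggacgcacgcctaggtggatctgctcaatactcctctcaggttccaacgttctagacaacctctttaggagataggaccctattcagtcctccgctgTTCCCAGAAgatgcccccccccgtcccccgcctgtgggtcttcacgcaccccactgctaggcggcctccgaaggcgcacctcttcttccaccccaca
Of 15 other genes of peptide presentation on class I molecules, edgeR, DESeq2 and limma called 0, beside 3.45%, 9.23% and 4.73% of all genes. At an unadjusted edgeR p under 0.05, 6 were higher and 1 was lower, beside 11.5% and 11.3% of all genes. Log2 fold changes were positive in 12 (48.7% of all genes were), with a median of 0.31, beside -0.01 for all genes. H2-D1, a class I heavy chain gene, had 724.9, 642.6 and 454.9 CPM in knockout replicates, against 362.2, 357.4 and 480.5 CPM in control replicates (0.60 ± 0.21, edgeR adjusted p = 0.144). B2m, the light chain gene, was at 0.47 (0.144) and Tap1 at 0.31 (0.502), whereas the interferon regulatory factor gene Irf1 was at -0.74 (0.142).

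Cell type markers moved with some of these libraries. The 7 endothelial markers together took 1458, 1471 and 644.6 CPM, here by library total, in knockout replicates 1 to 3, against 753.8, 788.5 and 922.4 in control replicates 1 to 3, so knockout replicates 1 and 2 were high, and they were also the highest 2 libraries for Psmb8 and Psmb9. The 14 immune cell markers together took 284.2, 283.8 and 238.1 in knockout replicates and 220.2, 112.9 and 401.9 in control replicates. Ptprc, the pan-leukocyte marker, had a log2 fold change of 0.03 (edgeR adjusted p = 0.969). Of the immune markers, 8 had too few counts to test, among them T cell genes. Cd4 had 29, 20 and 6 counts in knockout replicates 1 to 3, against 3, 0 and 6 in control replicates 1 to 3, and was highest in knockout replicates 1 and 2. Cd3e had 5, 7 and 14 counts in knockout replicates, against 1, 0 and 3 in control replicates. Cd3d had 5, 2 and 4 counts in knockout replicates, against 0, 0 and 2 in control replicates, and Cd8a had 2, 6 and 6, against 0, 0 and 0. These counts are few, and the libraries differ in depth. The part of other cell types in the immunoproteasome values was not tested.

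Psmd5, Psmd9 and Psmd10 are named as subunits but encode chaperones that assemble the base of the regulatory particle and leave before it is complete. Psmd5 had 33, 40.5 and 41.1 CPM in knockout replicates, against 21.5, 23 and 27.8 CPM in control replicates. The groups did not overlap, and the mean was 158.6% of control. Cutal, which overlaps Psmd5, had 32 counts in all. The log2 fold change of 0.66 ± 0.15 was nearly that of Psmd8, with a 95% interval of 0.30 to 1.02, but it missed the threshold (edgeR adjusted p = 0.0626). DESeq2 called it (adjusted p = 0.015), and over the 6 fits with a library left out the change stayed between 0.57 and 0.79. Psmd9 (0.12) and Psmd10 (0.02) had overlapping groups. Psmd10 is low, with 748 counts in all, and had 4.1 CPM in control replicate 2 against 8.5 to 11.9 CPM in the other 5 libraries. Psmc3ip, the meiotic cofactor, had a log2 fold change of 0.50 ± 0.26 (edgeR adjusted p = 0.299) from 263 counts, and it overlaps Mlx, which had 1181 counts, so its value is uncertain.

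**Figure D4:**
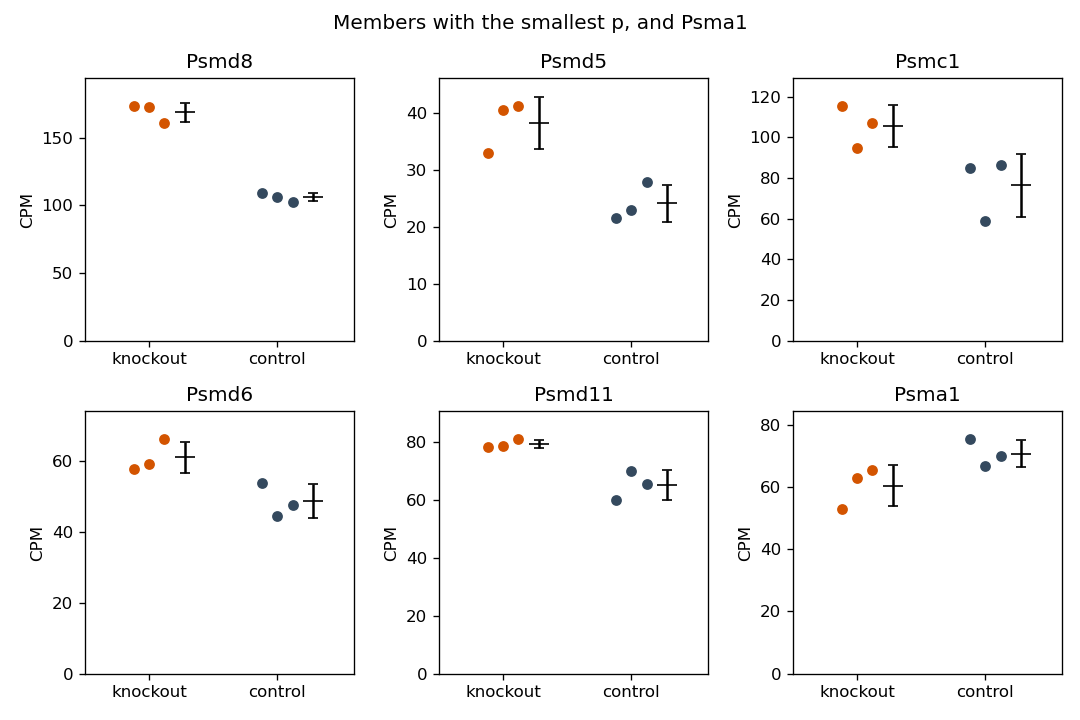
CPM of the 5 members with the smallest p (Psmd8, Psmd5, Psmc1, Psmd6 and Psmd11) and of Psma1. Points are libraries, knockout left of control, and bars are the mean and SD of 3 libraries. Psmd8 shows the widest gap beside its spread.

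The order of levels per gene length was much the same in both groups. Among the 31 constitutive core and regulatory subunits, the lowest and highest FPKM in a library were 6.56 to 7.35 and 50.1 to 55.6 in knockout libraries, and 4.21 to 6.74 and 31.8 to 51.5 in control libraries. The SD of their log2 FPKM within a library was 0.804 to 0.825 in knockout and 0.740 to 0.807 in control libraries. Psmc5, an ATPase gene, was the highest in each of the 6 libraries, with a mean of 52.8 FPKM in knockout and 44.3 FPKM in control aorta. The next were Psmb4, Psmd7, Psmc1 and Psmb5, with knockout means of 45.1, 43.4, 42.7 and 37.4 FPKM and control means of 39.6, 41.6, 31.6 and 35.2 FPKM. Psmb4 and Psmd7 changed places between libraries, as did Psmc1 and Psmb5, so within each of these pairs the order was not stable. Nor was it stable across the pairs. Psmc1 ranked 2 in knockout replicate 1 and 3 in knockout replicate 3. Psmb5 ranked 3 in control replicate 1, 6 in knockout replicate 3 and 7 in control replicate 2. Psmd7 lay above Psmb5 in all 6 libraries. Median FPKM of core subunits was 18.1 to 20.4 in knockout libraries, and 20.84, 11.76 and 20.55 in control replicates 1 to 3. That of regulatory subunits was 14.8 to 16.2 in knockout libraries, and 15.05, 10.01 and 15.24 in control replicates 1 to 3. FPKM are scaled to library totals without TMM, and the low end of each control range in this paragraph came from control replicate 2. That library also lowered control means: Psmc5 had 49.5, 31.8 and 51.5 FPKM in control replicates 1 to 3. Psma3, Psmd11, Psmd13 and Psmd14 were the lowest constitutive subunits, with group means of 6.30 to 8.42 FPKM. Immunoproteasome subunits stood lower still, with medians of 2.35 to 3.71 FPKM in knockout and 1.87 to 2.63 FPKM in control libraries.

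**Figure D5:**
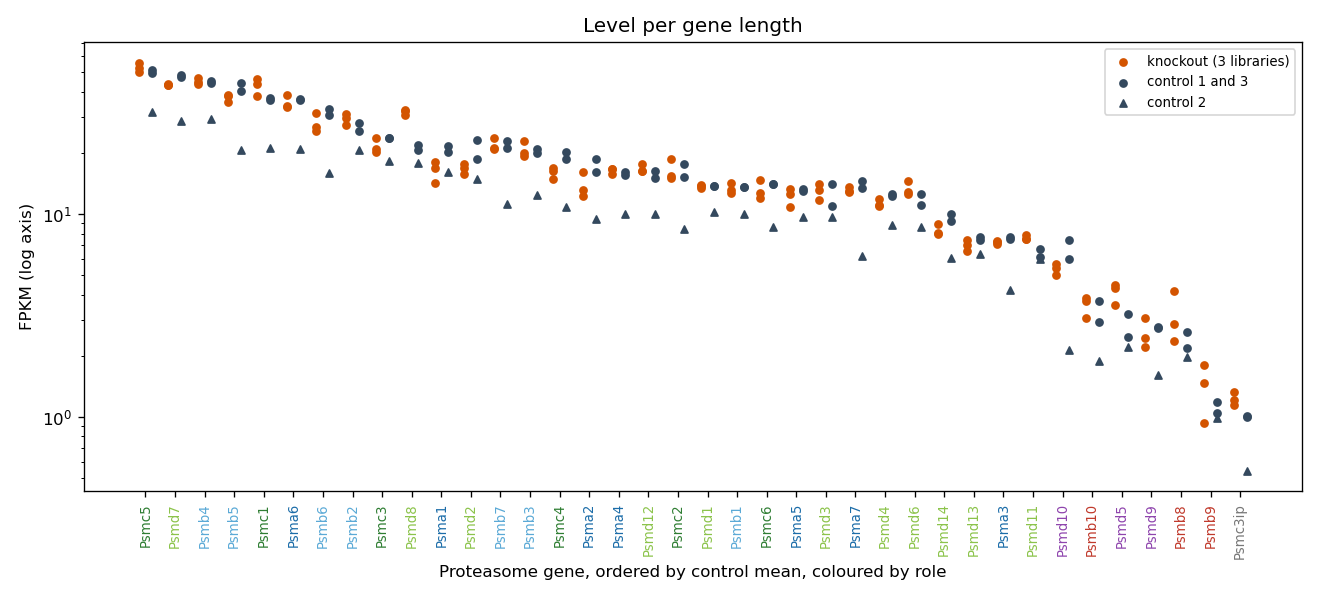
FPKM on a log axis for the 38 genes, ordered by control mean, with knockout libraries left of control libraries for each gene. Triangles mark control replicate 2, which lies below the other controls for most genes, and Psmc5 is the highest gene in all 6 libraries.

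Further parts of the pathway were described from lists of other genes. The list of further subunits, activators and assembly factors had 18 tested genes, of which 15 were positive (48.7% of all genes were). EdgeR called 0 of them, with 7 higher at an unadjusted p under 0.05, beside 11.5% of all genes. DESeq2 called Psme4 and Usp14 higher, beside 4.68% of all genes, and limma called Psme4 higher, beside 2.40%. The median log2 fold change was 0.33, or 0.27 without control replicate 2, beside -0.01 for all genes. Psme4, which encodes an activator cap that needs no ubiquitin, had 173.2, 178.7 and 159.5 CPM in knockout replicates, against 96.4, 126.4 and 110.1 CPM in control replicates. The groups did not overlap and the log2 fold change was 0.62 ± 0.13 (edgeR adjusted p = 0.052, DESeq2 0.00256, limma 0.0396). Usp14, a deubiquitinase of the regulatory particle, was at 0.41 ± 0.11 (edgeR adjusted p = 0.0798, DESeq2 0.0376) and the redox protein gene Txnl1 at 0.35 ± 0.11 (edgeR 0.126). Without control replicate 2, Psme4 (0.73, edgeR adjusted p = 0.0261) and Usp14 (0.46, 0.0447) were called. In that fit 491 of 16535 genes tested were called higher. Psme1 and Psme2, the interferon-responsive activator genes, were at 0.34 and 0.36 (edgeR adjusted p = 0.26 and 0.214).

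Of 10 genes that control proteasome transcription, edgeR and limma called 0 and DESeq2 called Maff higher, beside 4.68% of all genes. At an unadjusted edgeR p under 0.05, 2 were higher and 1 was lower, beside 11.5% and 11.3% of all genes. Log2 fold changes were positive in 3, and the median was -0.13, beside -0.01 for all genes. Nfe2l1 had 73.6, 78.4 and 98.3 CPM in knockout replicates, against 70, 321.8 and 98.5 CPM in control replicates. Control replicate 2 was thus more than 3 times any other library, and the log2 fold change of -0.95 ± 0.57 (edgeR adjusted p = 0.373) became -0.01 without it. In that library the subunit genes themselves were low, as given above. Nfe2l2 was at -0.22 (0.394), the protease gene Ddi2, whose product activates the Nfe2l1 protein, at -0.33 (0.166), and the small Maf gene Maff at 0.59 (0.0683, against a DESeq2 adjusted p of 0.0244). Hcfc1, the gene of a chromatin partner of O-GlcNAc transferase, was at 0.51 (edgeR adjusted p = 0.201). It was called without control replicate 2 (0.77, 0.0341), a fit in which 491 of 16535 genes tested were called higher.

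Of 17 ubiquitin supply and shuttling genes, 1 rose, beside 1.90% of all genes. At an unadjusted edgeR p under 0.05, 2 were higher and 3 were lower, beside 11.5% and 11.3% of all genes. The median log2 fold change was 0.04, beside -0.01 for all genes, and 9 of 17 were positive. Ubqln4, which carries ubiquitinated proteins to the proteasome, had 68.1, 68.6 and 67 CPM in knockout replicates, against 46.9, 38.2 and 46.4 CPM in control replicates. The groups did not overlap (log2 fold change 0.62 ± 0.12, edgeR adjusted p = 0.0412). The call was lost without any 1 of the libraries other than control replicate 2, with adjusted p-values up to 0.186. Its relative Ubqln2 was at -0.41 ± 0.14 (edgeR adjusted p = 0.133).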

How the data were processed

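RNA-seq of 6 whole-aorta libraries was used, 3 from knockout and 3 from control mice, grouped and numbered by sample title. The authors deposited 1 table with a read count and an FPKM value per gene and library. The counts the authors deposited are whole and not normalized, per the file headers. The FPKM the authors deposited are proportional within a library to the count over a fixed gene length, to within a relative difference of 1.4e-05 over 7705 genes. Per the submitters' processing notes, CASAVA 1.8, HISAT2, SAMtools 1.3.1 and edgeR were used on build GRCm39. No source used here gives the counting program or the strand setting. Of 55141 gene identifiers shared with GENCODE M21 of GRCm38, 54821 had identical positions, the 40 members among them, so positions are given as GRCm38.

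Counts were filtered with filterByExpr by group (16139 genes kept), scaled with TMM and tested with edgeR 4.0.16 (glmQLFit, robust, and glmQLFTest) in R 4.3.3. P-values were adjusted with the Benjamini-Hochberg method over all genes tested, with a threshold of 0.05. Standard errors are the size of the log2 fold change over the square root of F. CPM use TMM-scaled library sizes, except sums over marker lists, which use library totals. DESeq2 1.42.0, limma 3.58.1 (voom), other scalings and filters and leaving out each library were alternatives. The steps were checked on simulated counts. Replicate pairs differed beyond counting error (mean chi-square over genes 15.5 to 152.5). Nothing says that libraries came from separate mice, so p-values measure the spread between these libraries, which may be technical. Levels between genes were compared by FPKM within a library. Named were Ogt, every member, from each other list all called genes and the 3 with the smallest p, and 7 genes whatever their values; not all are reported. Acta2, Myh11 and the immune markers Cd3e, Cd3d, Cd4 and Cd8a, the last 4 of which had too few counts to test, were named from the marker lists after their values were seen. The members and lists were chosen with earlier results of these data known. The list gene Paaf1 was not analysed here.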

Additional observations from a re-analysis of the deposited data

How the results depend on the processing

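The count of genes called was 557 and that of members called higher was 1. DESeq2 called 1490 genes and 2 members, library totals without TMM called 193 and 0, and the title number as a replicate block called 28 and 0. Other filters, nuclear protein-coding genes only, DESeq2 size factors, limma and a fit without robust estimation called 511 to 763 genes and 1 member. Leaving out 1 library gave 7 genes (without control replicate 1), 911 (control replicate 2), 280 (control replicate 3) and 12, 13 and 33 (knockout replicates 1, 2 and 3), with 0 to 1 members called higher, 0 lower and a median log2 fold change of the members of 0.076 to 0.262. The median was 0.164 to 0.234 under the other settings.

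Psmd8 kept its direction in every setting and had an edgeR adjusted p of 0.0674 with library totals and 0.106 with the replicate block. Same-number deviations from the group means correlated at 0.05, 0.099 and -0.064. Knockout replicates 1 and 3 correlated best with another number, and knockout replicate 2 with its own. With 3 libraries per group, these correlations cannot decide whether the libraries were paired. The cause of these lost calls was not tested.

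Over all settings, the values of single members kept direction and call in 529 cases, lost a call in 7, gained one in 1 (Psmd5 by DESeq2) and changed sign in 34. For the other named genes these numbers were 476, 19, 10 and 5. Sign changes were seen only in genes not called. Without a filter, Psmc3 was at 0.047, Psmc4 at 0.010, Psmd13 at 0.031 and Psmd14 at 0.034. With the block, Psmc4 was at 0.000 and Psmd14 at 0.011. Psmd10 was at -0.055 by limma, -0.030 with library totals and -0.003 with nuclear protein-coding genes only. With 1 library left out, ranges that crossed 0 were -0.22 to 0.09 (Psma2), -0.02 to 0.128 (Psma5), -0.086 to 0.261 (Psmb5), -0.099 to 0.234 (Psmb6), -0.062 to 0.057 (Psmc3), -0.18 to 0.091 (Psmc4), -0.034 to 0.067 (Psmd4), -0.049 to 0.167 (Psmd7), -0.062 to 0.036 (Psmd13), -0.112 to 0.089 (Psmd14), -0.019 to 0.22 (Psmd9), -0.224 to 0.302 (Psmd10), -0.087 to 0.555 (Csf1r), -0.025 to 0.565 (Dpep1) and -0.201 to 0.204 (Ptprc). Counting Psma5 with its pseudogene, chosen after seeing the data, changed no call. Control replicate 2, with 3038782 counts, gave the low members few counts: Psmc3ip had 5 and Psmd10 had 11 there.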
